A study of Mus musculus with 6 samples.

Results

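Mitochondrial ribosomal proteins build the ribosome inside mitochondria, and they are described here in mouse bone marrow progenitors 7 days after the start of periodontitis. The members were every row of the deposited table whose symbol starts with Mrpl or Mrps followed by a number. The rule found 78 of the 16403 genes in the table, of which 49 were large-subunit symbols (Mrpl) and 29 small-subunit symbols (Mrps).

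The mitochondrial ribosome translates the few mRNAs of the mitochondrial genome, which encode core subunits of the respiratory chain and of ATP synthase. All of its proteins are encoded in the nucleus, made in the cytosol and imported, and there they join ribosomal RNA made from mitochondrial DNA. Part of the proteins descend from the bacterial ancestor of the organelle (structural names beginning with u or b), and the others were added in the mitochondrial lineage (names beginning with m). Quiescent blood stem cells are known to rely largely on glycolysis and to raise respiration as they differentiate.

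The LIP group held C57BL/6 mice with ligature-induced periodontitis, in which a thread tied around a molar gathers bacteria and inflames the gum. The NL group held C57BL/6 mice with no ligature, and marrow of both groups was taken on day 7. RNA was sequenced in bulk from sorted LSK cells, the lineage-negative, Sca-1-positive, Kit-positive fraction that holds stem cells and early progenitors. Cells of 3 mice were pooled for each library, and a group had 3 libraries, so no value belongs to a single animal, and the labels give neither a batch nor the age of the mice. The comparison asks how a local gum inflammation is reflected in these distant progenitors.

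Library totals lay between 17780853 and 18841103 estimated counts, and 12564 genes passed the filter on low counts. Every one of the 78 members passed it. A member had between 228 counts (Mrpl53) and 2123 counts (Mrpl12) in a library. Markers of the sorted fraction summed to 2308 to 2346 CPM (counts scaled to the library total with TMM factors) in LIP libraries and to 2249 to 2265 CPM in NL libraries, and 2 of the 7 rose. Markers of other cell types were also read, and none of them was at 0 in all libraries. All 8 tested neutrophil markers, 5 of 8 monocyte markers, 6 of 9 B-lineage markers, 4 of 5 T and NK markers, 3 of 5 megakaryocyte markers and 1 of 4 mast cell markers rose in LIP. Falls were called for 4 of 7 erythroid markers, 2 mast cell markers and 1 monocyte marker. Neutrophil markers summed to 309 to 330 CPM in LIP libraries, against 216 to 232 CPM in NL libraries, and erythroid markers to 500 to 540 CPM in LIP libraries, against 567 to 587 CPM in NL libraries. Monocyte markers summed to 827 to 861 CPM in LIP libraries and 656 to 673 CPM in NL libraries, and B-lineage markers to 91.2 to 94.7 CPM in LIP libraries and 72.9 to 74.9 CPM in NL libraries. T and NK markers summed to 155 to 170 CPM in LIP libraries and 138 to 147 CPM in NL libraries, while the megakaryocyte and mast cell sums overlapped between the groups. Their part in the results on mitochondrial ribosomal proteins was not tested. In bulk RNA, fewer cells of a type and less RNA per cell cannot be told apart.

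Mitochondrial ribosomal protein mRNAs were mostly lower in LSK cells of LIP mice, by small amounts. By edgeR's quasi-likelihood test with Benjamini-Hochberg adjustment over all tested genes, 40 of the 78 members fell, 1 rose and 37 were not called at an adjusted p below 0.05. Over all tested genes 15.8% were called lower and 14.1% higher. The median log2 fold change, LIP over NL, was -0.15 over the members and -0.00072 over all tested genes, with members between -0.36 and 0.12. In 45 members every LIP library lay below every NL library, in 3 every LIP library lay above, and in 30 the groups overlapped. The same held for 21.0% and 19.9% of all tested genes, below and above. The members' mRNAs are short, and with an offset for the trend on transcript length, described further on, 17 members were called lower and 7 higher.

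Before any offset for length, both subunits had a larger share of lower calls than the 15.8% of all tested genes. Of the 49 Mrpl genes, 27 fell and 1 rose, with a median log2 fold change of -0.17. Of the 29 Mrps genes, 13 fell and none rose, with a median of -0.12. At an unadjusted p below 0.05 the edgeR test had 1 higher Mrps gene (Mrps2) and 17 lower ones, and DESeq2 and limma-voom also called 0 Mrps genes higher. The share of all tested genes at the unadjusted threshold was not counted, so those 17 cannot be set against it. No Mrps gene had LIP wholly above NL, while 18 had LIP wholly below. With the length offset, 13 of the 49 Mrpl genes fell and 4 rose, with a median of -0.05. Of the 29 Mrps genes 4 then fell and 3 rose, with a median of 0.0003. The shares over all tested genes were 13.4% lower and 13.2% higher with that offset, near those of the Mrps genes. A difference between the subunits was not tested.

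**Figure D1:**
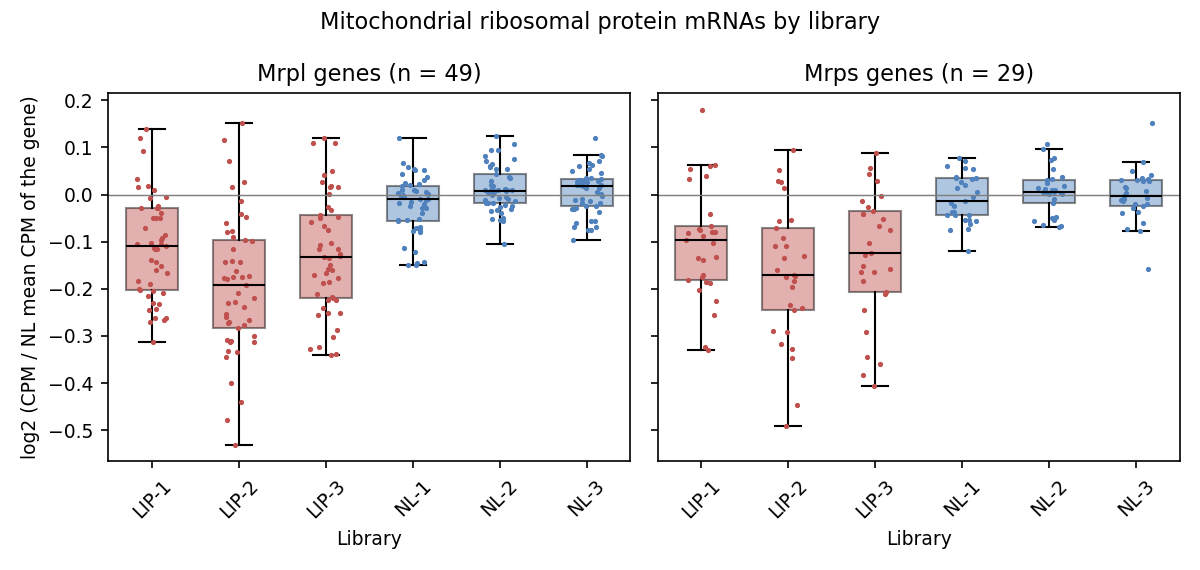
Each point is 1 member in 1 library, as the log2 ratio of its CPM to the mean CPM of that gene in the NL libraries, for the 49 Mrpl and the 29 Mrps genes. Boxes span the quartiles with the median as a line. The Mrpl medians lie between -0.19 and -0.11 in LIP libraries and between -0.01 and 0.02 in NL libraries.

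The shift was seen in each LIP library and was deepest in LIP replicate 2. Summed over the 49 Mrpl genes, LIP libraries held 2273 to 2396 CPM and NL libraries 2549 to 2606 CPM. Summed over the 29 Mrps genes, LIP libraries held 1191 to 1235 CPM and NL libraries 1308 to 1315 CPM. The groups did not overlap in either sum. LIP replicate 2 was the lowest LIP library for 45 of the 78 members, LIP replicate 1 for 14 and LIP replicate 3 for 19. On the deposited TPM scale, which divides by transcript length and fixes each library's total, the Mrpl genes summed to 4271 to 4467 TPM in LIP libraries and 4485 to 4526 TPM in NL libraries. The Mrps genes summed to 2223 to 2262 TPM in LIP libraries and 2239 to 2265 TPM in NL libraries, so on this scale the groups overlapped for the small subunit. The TPM scale also moved the median log2 ratio of all tested genes to 0.13, against which the Mrpl median of -0.05 and the Mrps median of 0.02 are to be read.

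Among large-subunit genes the largest fall was that of Mrpl32 (gene ID 75398, chr13:14610301-14613037 on GRCm38, RefSeq), a protein inherited from bacteria that the m-AAA protease trims before it is assembled. Mrpl32 had 33.0, 26.8 and 30.6 CPM in the LIP libraries and 38.8, 37.7 and 39.4 CPM in the NL libraries. The groups were clearly apart, with a log2 fold change of -0.36 (SE 0.06, adjusted p = 2.29e-06). Mrpl23 (chr7:142532467-142540747), at the exit of the peptide tunnel, had 58.8, 50.9 and 55.0 CPM in LIP libraries and 65.8, 69.0 and 72.3 CPM in NL libraries. Every LIP library again lay below every NL library, and the log2 fold change was -0.33 (SE 0.05, adjusted p = 2.00e-07). Mrpl13, another protein of bacterial origin, averaged 50.1 ± 1.52 CPM in LIP libraries and 62.2 ± 1.01 CPM in NL libraries (SD, n = 3 each), a log2 fold change of -0.31. Mrpl30 and the mitochondria-specific Mrpl42 fell by 0.28 and 0.27 on the log2 scale, also without overlap.

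Mrpl35 (chr6:71812997-71823784), a bacterial-type protein of the large subunit, had some of the tightest values. Its LIP libraries held 31.4, 31.6 and 31.1 CPM and its NL libraries 39.5, 39.2 and 38.2 CPM. The gap between the groups was larger than the spread within either, and the log2 fold change was -0.31 (SE 0.05, adjusted p = 6.34e-06). The counts of Mrpl35 were not whole in all libraries, so the refit with whole counts only leaves it out. Mrpl12 (chr11:120484637-120488754), the stalk protein that recruits translation factors and that also binds the mitochondrial RNA polymerase, was the member with the most counts. It had 98.7, 94.1 and 98.1 CPM in LIP libraries and 112, 120.5 and 112 CPM in NL libraries, wholly apart, with a log2 fold change of -0.24 (SE 0.04, adjusted p = 1.50e-06). Mrpl3 fell by 0.18 and Mrpl41 by 0.26 on the log2 scale, and both are named, with their values already seen, because their calls held in every refit described further on. Mrpl41 had 31.0, 28.1 and 33.8 CPM in LIP libraries and 33.6, 37.4 and 40.4 CPM in NL libraries, which overlap. Its counts were not whole in all libraries, and its effective length of 2338 bases, which the refits with a length offset use, is longer than its longest annotated transcript of 776 bases.

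Mrpl43 (chr19:45005014-45006442), a mitochondria-specific protein, was the single member that rose. It had 53.7, 52.9 and 52.6 CPM in LIP libraries and 46.2, 50.7 and 49.5 CPM in NL libraries. The groups did not overlap, but the log2 fold change of 0.12 (SE 0.05) was close to the threshold at an adjusted p of 0.0469. It was not called by DESeq2 (adjusted p = 0.147), by limma-voom (adjusted p = 0.0517), nor in 5 of the refits that left out 1 library, where the adjusted p reached 0.231 without NL replicate 1. Its estimated counts were not whole numbers in all libraries. Its exons overlap by 358 bases those of Twnk, the mitochondrial DNA helicase, on the opposite strand, and Twnk itself had a log2 fold change of 0.03 and was not called. The sources used here do not give the strand setting of the authors' counting, so reads of such overlaps cannot be told apart.

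Mrpl10 and Mrpl2 had positive values without a call, and both were chosen after their values were seen. Mrpl10, which anchors the stalk that carries Mrpl12, had 61.6, 63.1 and 58.7 CPM in LIP libraries and 56.3, 56.9 and 56.9 CPM in NL libraries. Its LIP libraries all lay above its NL libraries, with a log2 fold change of 0.11 and an adjusted p of 0.0619. Mrpl2, a protein close to the site of peptide bond formation, had a log2 fold change of 0.09 (adjusted p = 0.148), also without overlap.

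Among small-subunit genes Mrps6 (chr16:92058336-92112227) fell the most, followed by Mrps33, Mrps36, Mrps21, Mrps22 and Mrps24. Mrps6, a bacterial-type protein, had 17.8, 13.9 and 14.7 CPM in LIP libraries and 18.6, 19.6 and 20.5 CPM in NL libraries. Its groups did not overlap, although LIP replicate 1 came near the lowest NL library, and its log2 fold change was -0.34 (SE 0.08, adjusted p = 0.000581). Its exons share bases on the same strand with Slc5a3, an inositol transporter gene, and its counts were not whole in all libraries. Slc5a3 also fell, with a log2 fold change of -0.32 (adjusted p = 0.00388), and how far the shared bases link these values was not tested.

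Mrps33 (chr6:39801804-39810936), a mitochondria-specific protein, had 35.3, 35.6 and 34.9 CPM in LIP libraries and 46.1, 42.8 and 44.1 CPM in NL libraries. The LIP libraries were nearly equal and lay far below the NL libraries, with a log2 fold change of -0.33 (SE 0.05, adjusted p = 9.75e-07). Mrps21 (chr3:95862634-95871514), a bacterial-type protein, had 43.0, 39.5 and 37.1 CPM in LIP libraries and 48.8, 48.7 and 47.5 CPM in NL libraries, a log2 fold change of -0.28 (SE 0.05, adjusted p = 2.13e-05). Mrps22 (chr9:98588730-98601679), whose gene is mutated in a human mitochondrial disease, had 30.4, 29.7 and 27.3 CPM in LIP libraries and 32.2, 33.9 and 38.9 CPM in NL libraries, a log2 fold change of -0.26 (SE 0.06, adjusted p = 0.000715). All 3 were lower in every LIP library than in any NL library.

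Mrps36 averaged 25.6 ± 2.88 CPM in LIP libraries and 31.4 ± 1.22 CPM in NL libraries (SD, n = 3 each), a log2 fold change of -0.29. It carries the ribosomal symbol, but its protein is now regarded as a part of the 2-oxoglutarate dehydrogenase complex of the citric acid cycle. Mrps15 and Mrps18c, among the Mrps genes with the most TPM, fell by 0.19 and 0.23 on the log2 scale. Mrps25, with the lowest TPM of the Mrps genes, fell by 0.15 on the log2 scale. Mrps12, the protein of the decoding centre, had a log2 fold change of -0.12 and was not called (adjusted p = 0.0902). Mrps2, near the mRNA exit of the subunit, had the most positive value of the Mrps genes, a log2 fold change of 0.10 that was not called, and its libraries overlapped.

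**Figure D2:**
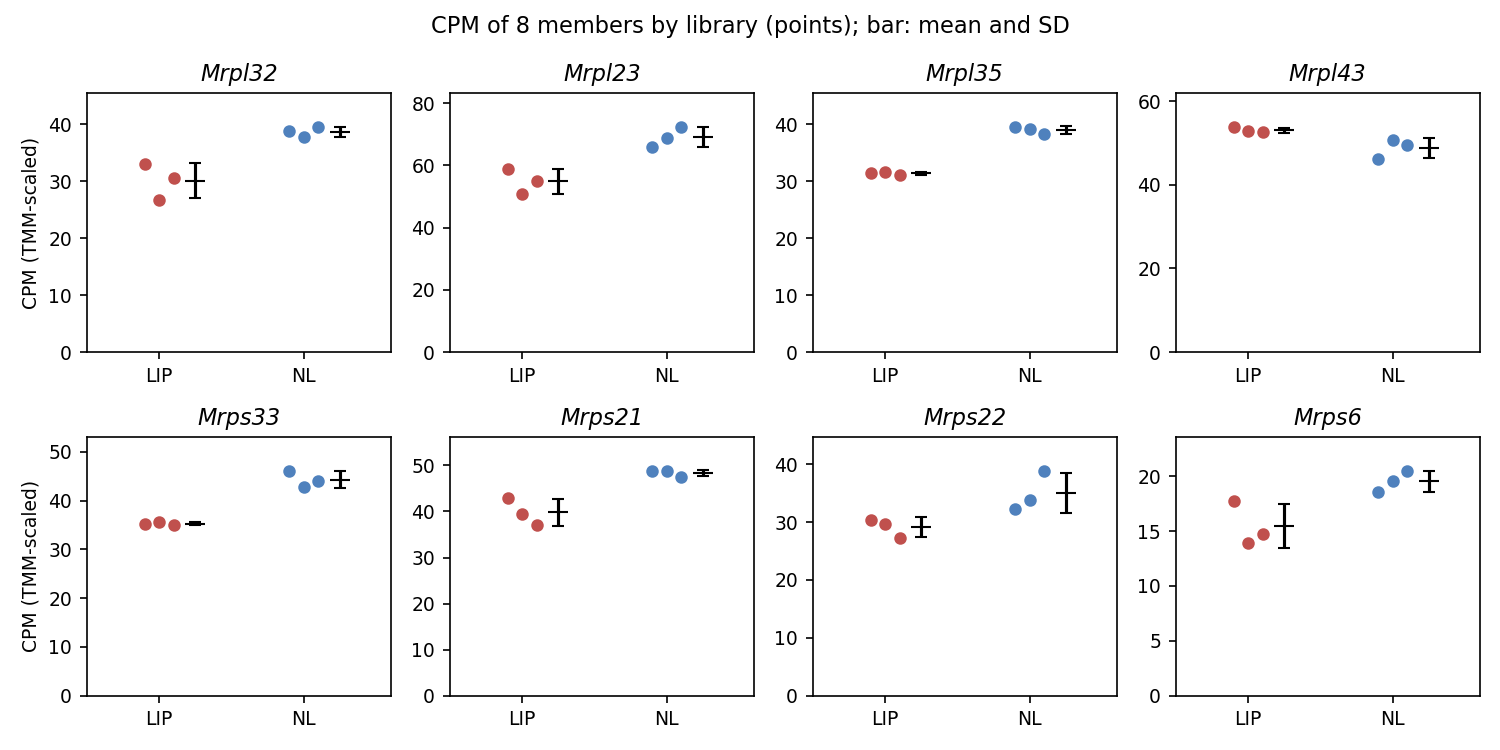
TMM-scaled CPM of 8 members, with 1 point for each LIP and each NL library and a bar for the mean and SD of the 3 libraries. Each axis starts at 0. Mrpl43 alone among the 8 has its LIP points above its NL points.

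**Figure D3:**
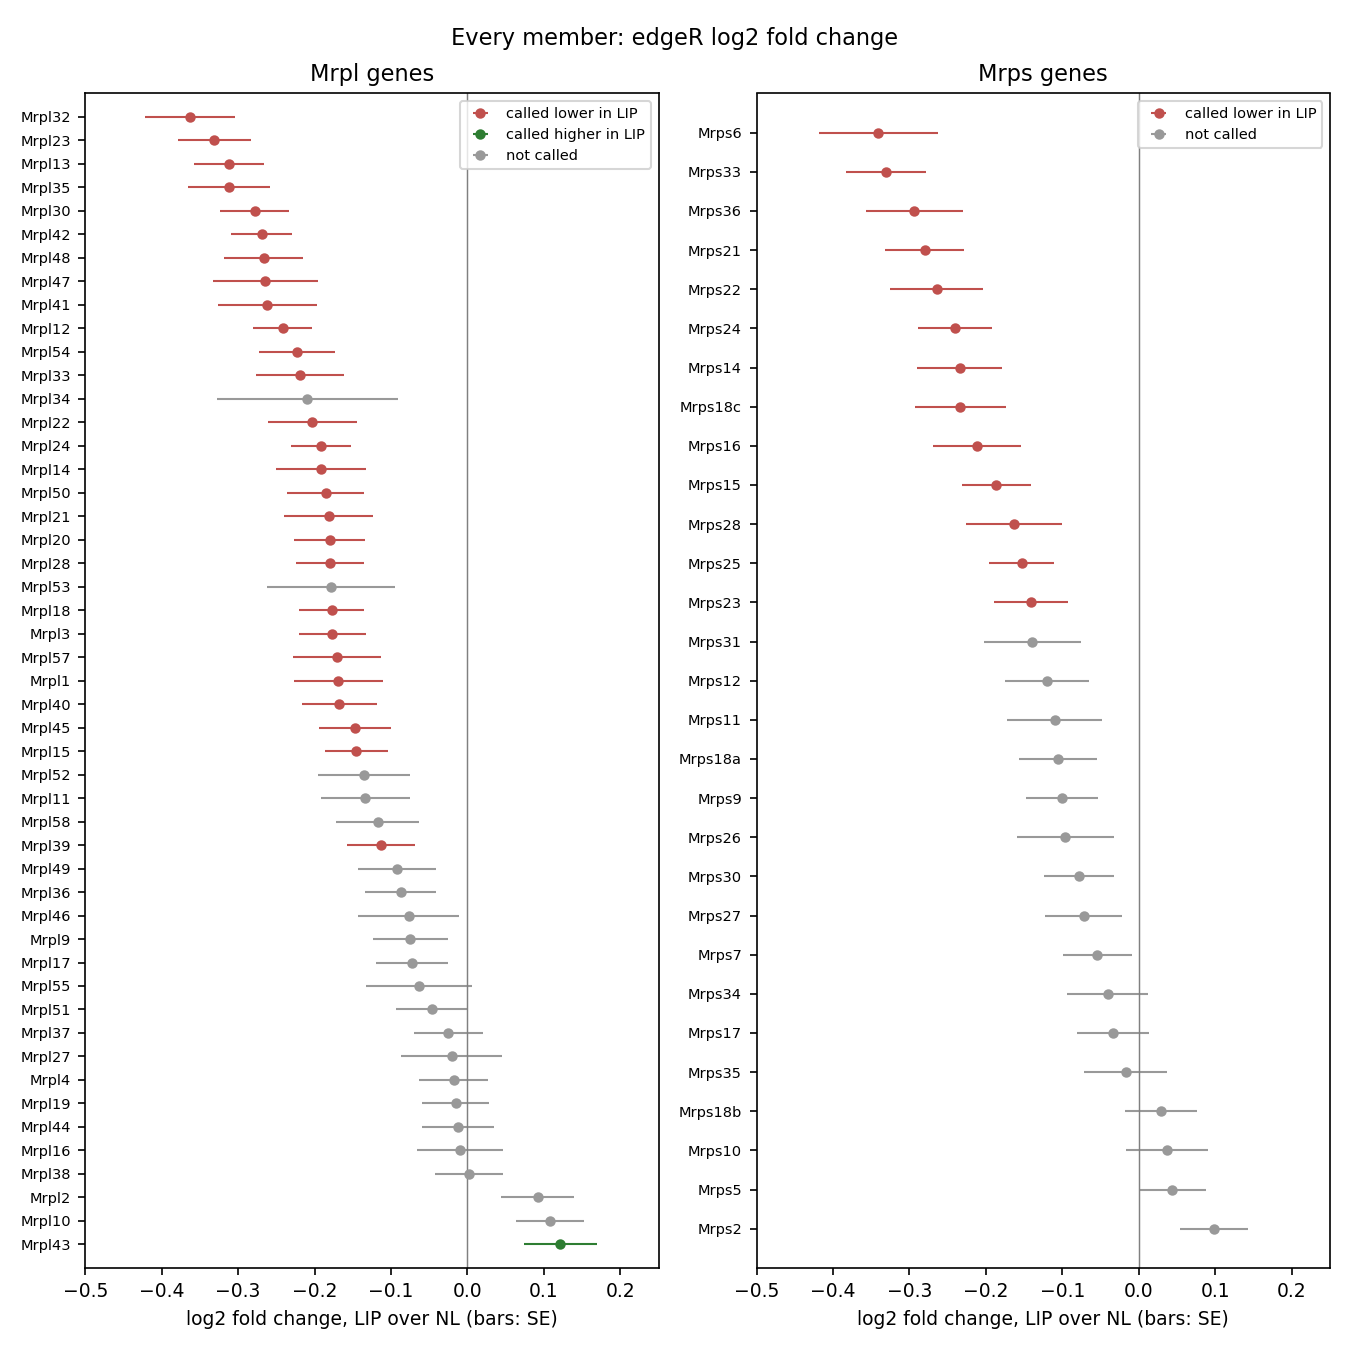
Log2 fold change, LIP over NL, of every member with its SE, sorted within the 49 Mrpl and the 29 Mrps genes and coloured by the edgeR call. Values run from -0.36 for Mrpl32 to 0.12 for Mrpl43, and 70 of the 78 points lie below 0.

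By structure, some symbols belong elsewhere than their names say. The proteins of Mrps30 and Mrps18a sit in the large subunit (mL65 and mL66), although their symbols say small subunit. Neither was called, with log2 fold changes of -0.08 (adjusted p = 0.197) and -0.11 (adjusted p = 0.109), and moving them to the large subunit left 27 lower large-subunit and 13 lower small-subunit genes. Mrps18b and Mrps18c, paralogs of Mrps18a in the small subunit, had log2 fold changes of 0.03 (not called) and -0.23 (called). Grouped by origin, 26 of 46 members with a bacterial homolog fell and none rose, with a median log2 fold change of -0.18. Of 31 mitochondria-specific members 13 fell and 1 rose, with a median of -0.12, and Mrps36 was put in neither class. The shares over all tested genes were 15.8% lower and 14.1% higher. With the length offset described further on, 9 of the 46 bacterial-type members fell and 4 rose, with a median of -0.031. Of the 31 mitochondria-specific members 8 then fell and 3 rose, with a median of -0.035. All tested genes had 13.4% lower and 13.2% higher with that offset. The median effective length was 863 bases in the bacterial-type members and 1129 bases in the mitochondria-specific ones, and the difference between these classes was not tested. Mrpl58, a peptidyl-tRNA hydrolase that frees stalled chains, had a log2 fold change of -0.12 and was not called (adjusted p = 0.0936).

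Levels between genes are compared in TPM, the mean over the 6 libraries of the deposited values. Mrpl52 had the most, 239 TPM, ahead of Mrpl42 with 229 TPM, Mrpl23 with 211 TPM and Mrpl12 with 209 TPM. Mrpl52 averaged 239 TPM in LIP libraries and 239 TPM in NL libraries, and its log2 fold change in counts was -0.13 (adjusted p = 0.0925). Mrpl17 had the least, 13.6 TPM. Among Mrps genes Mrps21 had the most, 197 TPM, and Mrps25 the least, 20.6 TPM. The median member had 72.6 TPM, with 74.7 TPM for Mrpl and 70.6 TPM for Mrps genes, against 21.3 TPM over all tested genes. Effective lengths of the highest and lowest members differed widely, with 324 bases for Mrpl52 and 6635 bases for Mrpl17.

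Short mRNAs in general were lower in LIP. The effective length is the number of bases over which a transcript can yield a fragment, and it was taken from the ratio of the authors' estimated counts to their FPKM. Its median was 962 bases over the members and 2753 bases over all tested genes. Of the 44 members under 1000 bases 27 fell (61.4%), with a median log2 fold change of -0.18, against 474 of all 1052 tested genes under 1000 bases (45.1%), with a median of -0.16. Of the 34 members of 1000 bases or more 13 fell (38.2%), with a median of -0.09, against 1510 of 11504 tested genes (13.1%), with a median of 0.0083. The sets still differ in length there, with median effective lengths of 1508 bases in those members and 2939 bases in those tested genes. Across genes, Spearman's rho between log2 fold change and effective length was 0.43 for the 49 Mrpl genes, 0.48 for the 29 Mrps genes and 0.27 for 12556 tested genes. These are descriptions across genes that share libraries, and genes are not independent replicates.

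**Figure D4:**
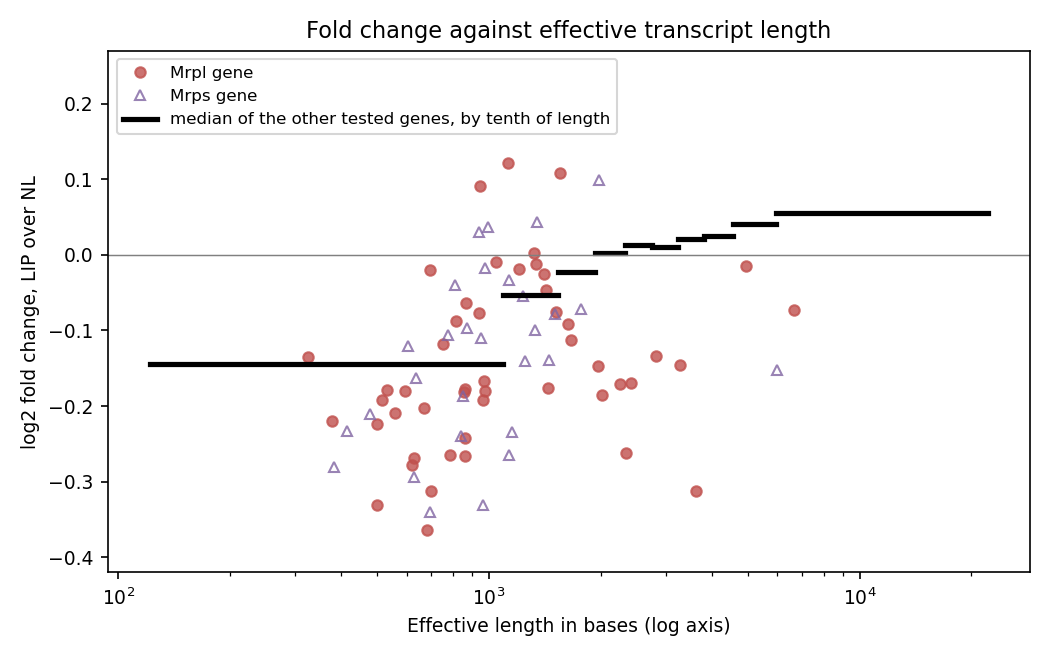
Log2 fold change, LIP over NL, against effective length in bases on a log axis, with a point for each Mrpl gene, a triangle for each Mrps gene and a black line for the median of the other tested genes in each decile of length. The line of the shortest decile, 122 to 1091 bases, lies at -0.14, and the 45 members in it have a median of -0.18.

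The members were also set against other genes of their length. Within the shortest decile the 45 members had a median log2 fold change of -0.18 and 27 fell (60.0%), against a median of -0.14 for the other genes and 42.7% of all genes called lower there. In the next decile 4 of 17 members fell (23.5%), against 22.2% of its genes. Of the 78 members, 52 lay below the median of the other genes in their decile, made up of 34 of 49 Mrpl and 18 of 29 Mrps genes.

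An offset for the trend on length in each library lowered the counts of called members. With it 13 Mrpl genes fell and 4 rose, and 4 Mrps genes fell and 3 rose, while 13.4% of all tested genes were called lower and 13.2% higher. The median log2 fold change became -0.05 for Mrpl and 0.0003 for Mrps genes. The called members lost were mostly the shortest, since 5 of the 27 called lower under 1000 bases were still called, and 11 of the 13 of 1000 bases or more. The trend was largest in the shortest decile (median -0.14 for the other genes), so the offset by its making takes most from short members. Mrpl32, Mrpl13, Mrpl35, Mrpl12, Mrpl3, Mrpl41, Mrps33, Mrps22 and Mrps25 were among the 17 lower members, and Mrpl43, Mrpl52, Mrpl10, Mrpl2, Mrps2, Mrps10 and Mrps18b were the 7 higher ones. With the offset, Spearman's rho between log2 fold change and effective length was -0.37 for the Mrpl genes and -0.12 for the Mrps genes. Over all tested genes this rho was -0.017, so a length trend of the opposite sign remained among the members, most clearly in Mrpl. Mrpl35 and Mrps25, which are long, kept log2 fold changes of -0.33 (adjusted p = 3.35e-06) and -0.20 (adjusted p = 0.000208) with the offset. The exons of Mrps25 overlap by 3533 bases those of Nr2c2 on the opposite strand, and its counts were not whole in all libraries. Calls were lost for Mrpl23 (-0.11, adjusted p = 0.0663), Mrpl30 (-0.09, adjusted p = 0.102), Mrpl42 (-0.09, adjusted p = 0.0824) and Mrps6 (-0.18, adjusted p = 0.0821). Mrps36 (-0.11, adjusted p = 0.179) and Mrps24 (-0.11, adjusted p = 0.0729) also lost theirs, and Mrps21, one of the shortest, had -0.01 (adjusted p = 0.946). Mrps15 and Mrps18c were not called with the offset either. With GC content added to the offset, 8 Mrpl genes fell and 4 rose, and 5 Mrps genes fell and 2 rose, while 12.1% of all tested genes were called lower and 12.2% higher. Whether the trend on length arose in the cells or in the making of the libraries was not tested.

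**Figure D5:**
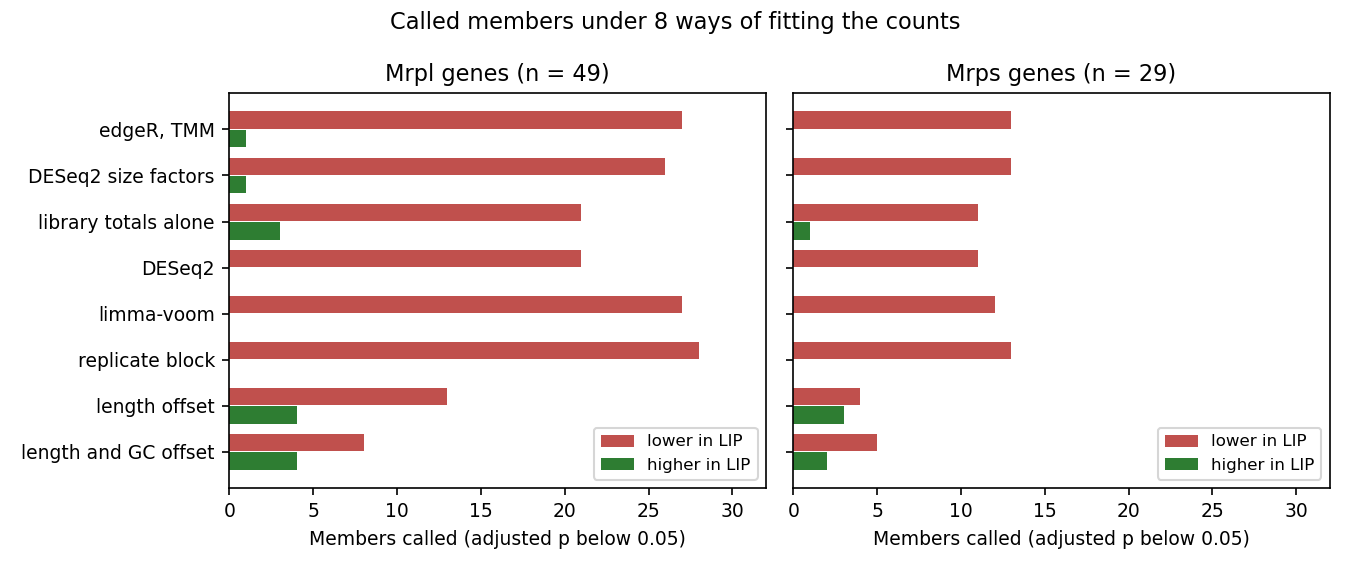
Number of the 49 Mrpl and of the 29 Mrps genes called lower and called higher in LIP (adjusted p below 0.05) under 8 ways of fitting the counts. The lower calls run between 21 and 28 for Mrpl genes until length enters the fit, where they drop to 13 and 8.

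Scaling by library totals alone, with no TMM factors, gave 21 lower and 3 higher Mrpl genes and 11 lower and 1 higher Mrps genes. Under that scaling 10.4% of all tested genes were called lower and 21.9% higher. In 17 or 18 refits (other scalings, tools, filters and offsets, and leaving out each library) 6 of the 41 called members held their call every time. These were Mrpl3, Mrpl12, Mrpl35, Mrpl41, Mrps22 and Mrps33. Mrpl39, with a log2 fold change of -0.11 and an adjusted p of 0.0486, held its call in 3 of 17.

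Of 5 mitochondrial ribosomal proteins that carry no Mrp symbol 3 fell, namely Chchd1 (mS37) with a log2 fold change of -0.36 (adjusted p = 8.49e-08), Gadd45gip1 (mL59) with -0.21 and Aurkaip1 (mS38) with -0.19. With the length offset the same 3 genes were called lower. Of all tested genes 15.8% were called lower without that offset and 13.4% with it. The counts of Gadd45gip1 were not whole in all libraries. Dap3, a GTP-binding protein of the small subunit, and Ptcd3, which helps to bind mRNA, had -0.10 and -0.0017 and were not called.

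Other parts of mitochondrial translation were read beside the 15.8% lower and 14.1% higher of all tested genes, and each count of calls in these lists lay near or below that share. Of 16 translation factors, Mtrf1l, a release factor, and Mtif3, an initiation factor, fell by 0.37 and 0.18 on the log2 scale, Mtif2, another initiation factor, rose by 0.14, and the median was -0.06. Of 27 genes for ribosome assembly and rRNA modification 3 fell and 2 rose, with a median of -0.04. Mettl15, an rRNA methyltransferase, fell by 0.39 on the log2 scale, and Spg7, a subunit of the m-AAA protease that trims Mrpl32, rose by 0.17. Of 20 mitochondrial aminoacyl-tRNA synthetases 1 fell and 3 rose, with a median of 0.04, Nars2 falling by 0.25 and Sars2 rising by 0.19 on the log2 scale. These 3 lists have median effective lengths of 2200, 1785 and 2320 bases, and the difference between them and the ribosomal proteins was not tested.

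Of 24 genes for mitochondrial transcription and RNA processing 8 fell (33.3%) and 1 rose, with a median of -0.08, against 15.8% and 14.1% of all tested genes. Fastkd5, which processes mitochondrial precursor RNA, fell by 0.28 on the log2 scale, and Hsd17b10, a subunit of mitochondrial RNase P, fell by 0.19. With the length offset 5 of the 24 fell and 1 rose, with a median of -0.03, against 13.4% and 13.2% of all tested genes. Fastkd5 was still called lower with it, and Hsd17b10 was not (-0.06, adjusted p = 0.323). The cytosolic ribosomal proteins fell nearly throughout, with 47 of 49 tested large-subunit and 32 of 32 small-subunit genes lower and a median of -0.31 in both. Rpl17 fell by 0.45 and Rps20 by 0.39 on the log2 scale, values that are uncertain where reads are shared with near-identical pseudogenes. Of 77 nuclear-encoded subunits of the respiratory chain and ATP synthase 64 fell, with a median of -0.22. Ndufa4, a subunit of complex IV, fell by 0.42 and Atp5l, a subunit of ATP synthase, by 0.37. With the length offset 31 and 21 of the cytosolic ribosomal genes and 23 of the respiratory chain genes were called lower, and 3 of the respiratory chain genes higher.

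The effective length was also compared between the groups. It did not overlap between LIP and NL libraries in 5 members, against 8.84% of the 12118 genes for which it could be read in all libraries. Mrps24 (uS3m, near the mRNA entry) had 811, 851 and 793 bases in LIP libraries and 874, 863 and 852 bases in NL libraries. Its LIP mean was 818 bases and its NL mean 863 bases, so LIP was -5.17% relative to NL. Mrpl1, of the mobile L1 stalk, had 2447 bases in LIP libraries and 2376 bases in NL libraries on average, and Mrpl39, Mrps2 and Mrpl45 (the last named after its value was seen) had LIP means that differed from NL by 1.91%, -0.35% and -1.70%. The exact two-sided permutation p was 0.1 for each, the smallest that 3 against 3 libraries allow. The exons of Mrps24 share bases with Urgcp on the same strand.

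In all, exons of 23 members overlap those of another protein-coding gene in the GENCODE M21 annotation, in 20 members on the opposite strand and in 4 on the same strand. Counts were whole in all libraries for 65 of the 78 members.

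Promoters were read because many members fell together, and 1 promoter for each gene was found for 69 of the 78 members in RefSeq (GRCm38.p6, 250 bases before to 50 after the start). Motifs of 3 factors known from nuclear genes of mitochondrial proteins were searched on both strands, namely NRF1 (CGCATGCG), the ETS factor core (CCGGAAG) and YY1 (AANATGGCG). The NRF1 motif was in 10.1% of member promoters, against 3.94% of 10088 promoters of tested genes and 1.91% of all 27025 promoters in the table. The ETS motif was in 36.2%, against 18.4% and 9.12%, and the YY1 motif in 15.9%, against 5.39% and 2.51%. At least 1 of the 3 was in 17 of 36 promoters of members called lower (47.2%) and in 19 of 33 promoters of the other members (57.6%). By motif, in the same order, the shares were 8.33% and 12.1% for NRF1, 33.3% and 39.4% for ETS, and 8.33% and 24.2% for YY1. These differences were not tested. A match is a run of letters and not a shown binding site.

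Printed here is, for each motif, the promoter of the called member with the largest change, with the motif in capitals as it reads on the gene's strand. They are Mrpl32 at chr13:14612988-14613287 with 2 NRF1 motifs, Mrps33 at chr6:39810887-39811186 with 1 ETS motif in reverse complement, and Mrpl35 at chr6:71823735-71824034 with 1 YY1 motif, all on the minus strand.
Mrpl32: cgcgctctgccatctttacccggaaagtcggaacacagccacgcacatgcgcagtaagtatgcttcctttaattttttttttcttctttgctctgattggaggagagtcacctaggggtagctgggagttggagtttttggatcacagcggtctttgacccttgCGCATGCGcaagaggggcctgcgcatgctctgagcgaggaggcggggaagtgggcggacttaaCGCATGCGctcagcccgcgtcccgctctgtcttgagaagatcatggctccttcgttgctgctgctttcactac
Mrps33: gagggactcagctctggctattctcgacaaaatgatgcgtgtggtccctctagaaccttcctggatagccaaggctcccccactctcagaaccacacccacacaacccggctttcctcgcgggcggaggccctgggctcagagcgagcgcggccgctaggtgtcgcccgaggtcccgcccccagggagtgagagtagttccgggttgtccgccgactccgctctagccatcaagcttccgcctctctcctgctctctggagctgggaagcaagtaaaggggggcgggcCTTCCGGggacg
Mrpl35: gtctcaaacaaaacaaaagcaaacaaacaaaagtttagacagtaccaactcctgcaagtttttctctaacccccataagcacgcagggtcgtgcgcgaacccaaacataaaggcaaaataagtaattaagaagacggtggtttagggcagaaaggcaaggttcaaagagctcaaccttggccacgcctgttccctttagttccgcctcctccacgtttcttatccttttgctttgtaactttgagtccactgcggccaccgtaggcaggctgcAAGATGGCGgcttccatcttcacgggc

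Starts back to back with another gene were also looked for. A start on the opposite strand within 1000 bases was found for 26 of the 69 members with a promoter (37.7%) and for 1992 of 10088 tested genes with one (19.7%), and the partner was tested in 24 pairs. Of these partners 4 fell, 3 rose and 17 were not called, shares near the 15.8% lower and 14.1% higher of all tested genes. In the 11 pairs whose member fell, the partner fell in 3, rose in 1 and was not called in 7. The 3 were Psma2, a proteasome subunit, beside Mrpl32 (log2 fold change -0.33), Mitd1 beside Mrpl30 (-0.21) and Ndufb5, a complex I subunit, beside Mrpl47 (-0.29), and the partner that rose was Pnpla7 beside Mrpl41 (0.16). The exons of Mrpl47 and Ndufb5 overlap by 530 bases on opposite strands, and with the strand setting unknown, reads there cannot be told apart. Mrpl46 and Mrps11 are partners of each other and neither was called. Mrps12 stands back to back with Sars2, where the member was not called and the partner rose. These partner genes were chosen after their values were seen.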

How the data were processed

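RNA of sorted LSK cells from LIP and NL mice was measured in 6 libraries, polyA-selected and read as 100 bp pairs on a BGISEQ instrument, per the labels' protocols. GRCm38 is the build named, and STAR and HTSeq the tools, per the submitters' processing notes, which give no versions. The deposited table holds the authors' expected (estimated) counts, FPKM and TPM, and the sources used here do not say which tool made the estimates. The 6 deposited group means were not used. The test was planned for counts, so the deposited expected counts were rounded to whole numbers first.

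Genes were filtered with filterByExpr and scaled by TMM in edgeR 4.0.16 (R 4.3.3). The contrast of LIP with NL used edgeR's quasi-likelihood test, with no term but the group, and p-values were adjusted by Benjamini-Hochberg over all 12564 tested genes. A call is an adjusted p below 0.05. SE values follow from the test statistic. The test was checked on simulated data whose planted changes were larger than that of any member. That check does not show how well changes of the members' size are found. The labels say only that each library pools 3 mice, so the p-values measure the spread between such pools. The effective length came from the deposited counts and FPKM, for genes with at least 10 counts and 0.1 FPKM, and the length and GC offsets were lowess trends per library. FPKM summed to 558139 to 574833 in LIP libraries and 600056 to 602209 in NL libraries. TMM factors lay between 1.01 and 1.02 in LIP libraries and between 0.981 and 0.988 in NL libraries.

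Members and gene lists were chosen with earlier results of these data known, so no pattern here is independent support. The genes named were, for each subunit, the 6 called members with the largest changes without overlap, the 3 highest and the 1 lowest in TPM, called members against the main direction, the 2 largest differences in effective length without overlap, a fixed panel of 8 by role or name, and the 2 members of each companion list with the smallest p. Genes named beyond that rule (Mrpl2, Mrpl3, Mrpl10, Mrpl41, Mrpl45, Mrpl46, Mrpl47, Mrpl53, Mrps10, Mrps11, Gadd45gip1, Dap3, Ptcd3, Mtif2, Slc5a3, Twnk, Urgcp, Nr2c2 and the partner genes) were chosen after their values were seen. So were Mrpl14, Mrpl20, Mrpl33, Mrpl54, Mrps16 and Mrps28. Alternatives were DESeq2 1.42.0, limma-voom in limma 3.58.1, other scalings and filters, a replicate block, length and GC offsets, whole counts only, a stricter threshold and leaving out each library.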

Additional observations from a re-analysis of the deposited data

How the results depend on the processing

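The numbers of lower calls among the members stayed within 1.5 times, and the medians within the spread between libraries, under DESeq2 size factors, upper-quartile factors, DESeq2, limma-voom, non-robust estimation, both other filters on low counts, whole counts only and the stricter threshold. The single higher Mrpl call, that of Mrpl43, went to 0 with DESeq2, limma-voom, the replicate block and an adjusted p below 0.01. Whole counts only and members under 1000 bases leave Mrpl43 out, so they say nothing on its call. DESeq2 called 1317 of all tested genes lower and 1167 higher, and an adjusted p below 0.01 left 1148 higher. Library totals alone gave 3 higher Mrpl genes, 1 higher Mrps gene, medians of -0.12 and -0.076, and 1301 lower against 2756 higher genes overall.

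The length offset gave 13 lower and 4 higher Mrpl genes (median -0.051) and 4 lower and 3 higher Mrps genes (median 0.00030). The length and GC offset gave 8 and 4 (median -0.059) for Mrpl and 5 and 2 (median -0.026) for Mrps, with 1525 lower and 1538 higher genes overall. Among the members named by the rule, called or not, signs turned for Mrpl52 (0.17 without and 0.13 with GC in the offset), Mrps18c (0.025 and 0.061), Mrps12 (0.070 and 0.017), Mrpl58 (0.032 and 0.017), Mrps18a (0.038, length offset) and Mrps30 (0.059, length and GC offset). Other members called lower in the main fit also turned positive with the length offset. They were Mrpl33 (0.056), Mrpl14 (0.028), Mrps16 (0.022), Mrps28 (0.018), Mrpl20 (0.012) and Mrpl54 (0.00077). Signs also turned in further members that were not called. The cause was not tested. Of 481 values of named genes under alternatives, 417 kept direction and side of the threshold, 44 lost a call, 10 gained one and 10 changed sign.

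Chosen after seeing the data, the deposited TPM scale gave medians of -0.046 (Mrpl) and 0.018 (Mrps). Members under 1000 bases had an Mrps median of -0.16, and members of 1000 bases or more had 9 lower Mrpl genes (median -0.083) and 4 lower Mrps genes (median -0.089), in part because fewer members remain.

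Leaving out each library gave 21 to 28 lower and 0 to 1 higher Mrpl genes, and 10 to 13 lower and 0 to 1 higher Mrps genes. Mrpl43 was called higher only without NL replicate 2 and lost its call without each of the other 5 libraries. Without LIP replicate 3 the higher Mrpl gene was Mrpl10 (0.14), and Mrps2 was called higher without LIP replicate 2 (0.13) or NL replicate 1 (0.14).

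The groups share replicate numbers, and no pairing by number was seen, though so few libraries could not exclude one. Deviations of same-numbered libraries correlated at 0.034, -0.018 and -0.12, and not every library correlated best with its own number. A replicate block gave 28 lower and 0 higher Mrpl genes, 13 lower and 0 higher Mrps genes, medians of -0.17 and -0.12, and 1979 lower and 1750 higher genes overall. With 3 pools a group, small changes such as those of Mrpl43 and Mrpl39 lie at the limit of what these counts resolve.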
